A study of Mus musculus with 12 samples.

Results

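The comparison described here set the livers of F2 males with an obese female ancestor, titled MatOb F2, against the livers of control males. It was made on 8 of the 12 arrays of the series, 4 in each group, chosen by their titles alone. All mice were C57BL/6 males aged 12 weeks. The control males had lean control parents, and their generation is not labelled. The F2 males are called grandsons of obese Avy/a females in the series' design text and sons of an obese mother in the sample labels, so the labels themselves differ on the relation. Avy is viable yellow, an agouti allele, and mice that carry it with the nonagouti allele a become obese. The remaining 4 arrays, of F3 great-grandsons, entered only the shared estimate of spread and a few values set side by side. The question is whether liver transcripts of male descendants differ when a female ancestor was obese. Whether each array was a separate animal is not stated, so the p-values describe only the spread between these samples, which may be technical.

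The liver makes fatty acids and cholesterol from acetyl-CoA, oxidises fatty acids in fasting, converts cholesterol to bile acids, clears drugs and steroids, and secretes most plasma proteins. Fatty acid synthesis genes rise with feeding and insulin through the transcription factor SREBP-1c, and cholesterol synthesis genes rise when sterols are low through SREBP-2. Acute phase genes rise in inflammation, and the fatty acid receptor PPAR-alpha raises oxidation genes in fasting.

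Expression was deposited on a log2 scale for each probe set of a whole-transcript array, which measures coding genes together with many noncoding RNAs. One unit is a 2-fold step. Hepatocyte markers had a median level of 12.54, led by Alb, the albumin gene, against 7.36 for Kupffer cell (liver macrophage) markers, 8.23 for sinusoidal endothelial markers and 5.22 for bile duct markers, so the arrays had the marker pattern of liver. In bulk tissue fewer cells of a type and less RNA per cell cannot be told apart. The arrays fell into a higher and a lower set by their level of small nucleolar RNA genes of the Snora, Snord and Scarna series, which guide the modification of other RNAs. Control replicates 2 and 4 and F2 replicates 1 and 4 were in the higher set, at 7.88 to 8.04, and the other 4 in the lower set, at 7.11 to 7.45. The sets were made from these values, and each holds 2 arrays of either group. The number of arrays limits the precision.

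No gene passed the test. Limma, fitted to all 12 arrays, called 0 of 18725 genes (0%) at an adjusted p under 0.05, and the smallest adjusted p was 0.9999. At an unadjusted p under 0.05 there were 172 genes (0.919%), 64 higher (0.342%) and 108 lower (0.577%) in F2. For 95.2% of genes the limits of the 95% interval stayed inside a 1.5-fold difference in either direction, genes near background included. Differences between group means were small throughout. Their median size was 0.044 and their 90th percentile 0.13 on the log2 scale. A difference of 0.3 or more was seen for 259 genes (1.38%), 99 higher (0.529%) and 160 lower (0.854%). A difference of 1.5-fold or more was seen for 30 genes (0.16%), 15 in each direction (0.0801% each), and one of 2-fold or more for 2 genes (0.0107%), Fasn and Cyp2b9. Cyp2b9 was bright enough to be tested only through control replicate 2. A pair of control arrays differed by a median of 0.18 per gene, 2 F2 arrays by 0.12, and a control array and an F2 array by 0.14. The SD over control arrays exceeded that over F2 arrays for 13037 genes, or 69.6%.

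The size of the differences depended little on expression level. Ordered by mean expression and cut into 5 groups of 3745 genes, the median size of the difference was 0.051 in the dimmest group, then 0.045, 0.039 and 0.039, and 0.047 in the brightest. Large differences were most frequent among the brightest genes. Of those, 89 (2.38%) differed by 0.3 or more, against 38 to 48 in each of the other groups, and 17 of the 30 genes at 1.5-fold or more lay there. Direction depended on scaling. F2 lay above control for 33.7% of genes in the dimmest group and 48.8% in the brightest, and for 43.3% overall. With every array centred on its median the shares were 43.8%, 59.9% and 54.5%, and with quantile normalization 42.8%, 49.5% and 48.6%. The median difference over all genes was −0.01 as deposited and 0.01 after centring, so a list median within a few hundredths of 0 has no settled sign.

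**Figure D1:**
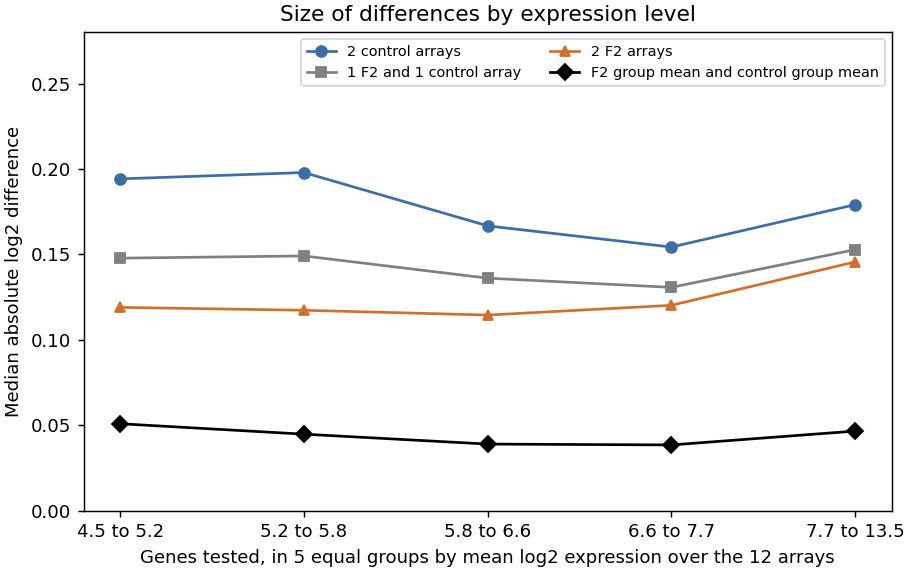
Median absolute log2 difference per gene (vertical axis) in 5 equal groups of genes by mean log2 expression (horizontal axis), between single arrays of the same or different groups and between the group means. The line of group means stays between 0.039 and 0.051, and in every group 2 control arrays lie further apart than 2 F2 arrays.

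By gene class, the 13466 protein-coding genes had a median difference size of 0.040, and 155 (1.15%) reached 0.3. Small nucleolar RNA genes were more dispersed, with a median size of 0.085 and 25 of 341 (7.33%) at 0.3 or more, 21 of them lower in F2. Arrays also lay further apart for this class, by a median of 0.30 between 2 control arrays, and those 25 genes held 15 distinct values because near-identical copies share them. The 54 genes of the Snora, Snord and Scarna series lay above control in 48 cases, with a median of 0.11, and 4 reached 0.3. The 287 others had a median of −0.01, and 21 reached 0.3. The 54 are the genes that define the array sets, and their mean level was 8.04 and 8.02 in F2 replicates 1 and 4 but 7.22 and 7.45 in F2 replicates 2 and 3. Control arrays stood at 7.38, 7.90, 7.11 and 7.88, so the groups overlapped. Predicted genes absent from the RefSeq table had 20 of 122 members (16.4%) at 0.3 or more, 19 of them lower in F2, with 16 distinct values. The groups overlapped for all 20. Of the 122, 2 (1.64%) reached an unadjusted p under 0.05 (limma), against 0.919% of all genes. Olfactory and vomeronasal receptor genes, silent in most liver cells, lay above control in 18 of 90 (20%), with a median of −0.07. The share was 43.3% over all genes and 33.7% in the dimmest group, where it was 43.8% after centring, so it depended on scaling.

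MicroRNA genes had a median difference size of 0.063, and 9 of 254 (3.54%) reached 0.3, 8 of them higher in F2. Over the class, 6 of 254 (2.36%) reached an unadjusted p under 0.05 (limma), against 0.919% of all genes. Of the 9, 3 had a 95% interval that excluded 0 and are printed, although picking by size favours such intervals. They were chosen after their values were seen, since the naming rule passed over microRNAs. The mature sequences are from RefSeq (build GRCm38.p6), 5′ to 3′, with the seed, bases 2 to 8, in capitals. Mir494 lies at chr12:109715334-109715388 (from the start of its 5p to the end of its 3p product), Mir5123 at chr4:40850057-40850080 on the minus strand and Mir1192 at chr19:23149450-23149471, the first and last on the plus strand.
miR-494-5p: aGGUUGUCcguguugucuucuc
miR-494-3p: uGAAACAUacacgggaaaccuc
miR-5123: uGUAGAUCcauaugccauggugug
miR-1192: aAACAAACaaacagaccaaauu
No 2 of them share a seed. Mir494 had the lowest unadjusted p of all 18725 genes. It stood at 5.24, 5.16, 5.19 and 5.40 in control replicates 1 to 4 and at 5.68, 5.68, 5.60 and 5.54 in F2 replicates 1 to 4. All 4 F2 arrays lay above all 4 control arrays. The difference was 0.38 (SE 0.079, adjusted p = 0.9999, limma), and it was between 0.35 and 0.43 when each array was left out. Mir5123 stood at 7.29, 7.37, 6.92 and 6.82 in controls and at 8.11, 7.46, 7.42 and 7.83 in F2, again without overlap, although the nearest arrays, at 7.37 and 7.42, were almost equal (difference 0.60, SE 0.25). Mir1192, at 7.34, 6.53, 6.63 and 5.97 in controls and 7.22, 6.90, 7.46 and 7.48 in F2, overlapped through control replicate 1 (difference 0.65, SE 0.28). Which form of the RNA, precursor or mature, these probe sets report was not stated in the labels. The F3 minus control values, which share the control arrays, were 0.25 for Mir494, 0.34 for Mir5123 and 0.38 for Mir1192.

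A pair of noncoding genes on neighbouring probe sets, also chosen after their values were seen, had the same order of control arrays. The lncRNA gene C730036E19Rik stood at 8.23, 7.18, 7.80 and 7.57 in controls and at 8.27, 8.39, 8.43 and 8.42 in F2. The pseudogene Gm8941 stood at 9.59, 8.72, 9.13 and 9.06 in controls and at 9.67, 9.92, 9.79 and 9.68 in F2. For both, control replicate 1 came within 0.08 of the lowest F2 array and the other controls lay well below. The differences were 0.68 (SE 0.20) and 0.64 (SE 0.16), neither passed the test, and without any 1 array they stayed at 0.51 or more and 0.50 or more.

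Agreement among the arrays was uneven. Across genes, which are not independent replicates, r ranged from 0.965 to 0.995 between pairs of arrays. Its median was 0.988 for a control and an F2 array, 0.987 for 2 arrays of a group, 0.990 for 2 arrays of the same set and 0.980 for arrays of different sets. Counting genes at least 0.5 from the mean of the other 3 arrays of the group gave 549, 1130, 1162 and 402 for control replicates 1 to 4 and 465, 978, 392 and 469 for F2 replicates 1 to 4. Control replicates 2 and 3 and F2 replicate 2 thus stood furthest apart, control replicate 2 mostly upward (768 genes) and the other 2 mostly downward (881 and 669 genes). Control replicate 3 was the highest of the 8 arrays for 29.3% of genes and the lowest for 22.3%, control replicate 2 for 20.1% and 28%. The 4 F2 arrays were the highest for 5.52% to 13.6% of genes each.

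**Figure D2:**
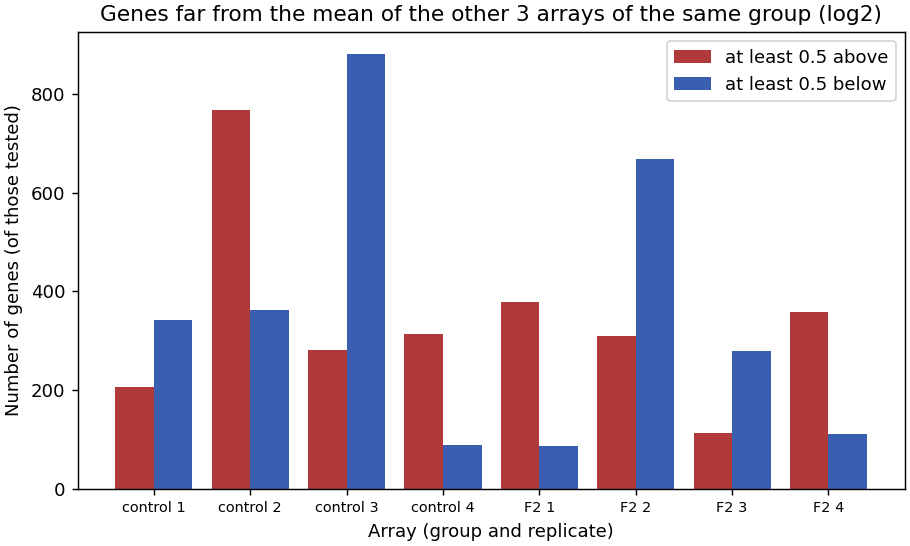
Number of genes (vertical axis, of 18725) on each array (horizontal axis) that lay at least 0.5 log2 units above (red) or below (blue) the mean of the other 3 arrays of its group. Control replicate 2 has the tallest bar upward, 768 genes, and control replicate 3 the tallest downward, 881 genes.

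Of the 259 genes with a difference of 0.3 or more, all 4 F2 arrays lay on the same side of the control mean for 123 (47.5%), against 15.9% of all genes tested. This comparison is a description, since the size of the difference chose the genes. For 214 of the 259 (82.6%) leaving out some 1 array turned the difference or cut it by over 1.5 times, and 31 stayed at 0.3 or more whichever array was left out. Leaving out control replicate 2 shrank the difference most for 141 of these genes and leaving out F2 replicate 2 for 55. Without both, 66 genes remained at 0.3 or more and 88 turned. The groups did not overlap for 132 genes (0.705%), 57 higher (0.304%) and 75 lower (0.401%), and only 12 of these (0.0641% of genes tested) also differed by 0.3.

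Of the genes tested, Fasn had the largest difference. It encodes fatty acid synthase, which builds palmitate from malonyl-CoA. Fasn stood at 10.78, 11.07, 10.30 and 11.44 in control replicates 1 to 4 and at 10.95, 9.43, 9.49 and 9.18 in F2 replicates 1 to 4. F2 replicates 2, 3 and 4 lay below every control, and F2 replicate 1 lay inside the control range. The means were 10.90 ± 0.48 (SD, n = 4) and 9.76 ± 0.81 (SD, n = 4), a difference of −1.14 (SE 0.42, 95% interval −2.04 to −0.23, adjusted p = 0.9999, limma). It was −1.19 within the higher and −1.08 within the lower set of arrays, and −0.96 without control replicate 2 and F2 replicate 2. The F3 value against the same controls was −0.18.

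F2 replicate 1 was also the highest F2 array for the other pathway genes given here. Acly, which supplies cytosolic acetyl-CoA, stood at 9.24, 10.10, 9.01 and 10.18 in controls and at 9.72, 8.50, 8.56 and 8.35 in F2 (difference −0.85, SE 0.38). Thrsp, a lipogenic regulator, stood at 11.35, 10.70, 11.08 and 11.59 in controls and at 11.49, 9.83, 10.69 and 9.83 in F2 (−0.72, SE 0.33). Elovl6, which elongates palmitate, stood at 10.10, 9.69, 9.81 and 10.05 in controls and at 9.84, 9.13, 9.39 and 8.90 in F2 (−0.60, SE 0.26). For all 3 genes F2 replicate 1 lay within the control range and the other 3 F2 arrays lay below every control, by 0.01 at the least for Thrsp. Acss2, which makes acetyl-CoA from acetate, stood at 7.34, 8.67, 7.31 and 8.28 in controls and at 7.72, 6.90, 7.26 and 7.26 in F2, where F2 replicates 2 to 4 lay below all controls by 0.05 or more (−0.61, SE 0.29). Its difference was −0.36 without control replicate 2. Scd1, the stearoyl-CoA desaturase and the brightest gene of the pathway, lay on the other side, at 12.91, 12.92, 12.63 and 12.99 in controls and 13.02, 12.88, 12.89 and 12.94 in F2. The groups overlapped, and the difference was 0.07 (SE 0.095, and −0.01 without control replicate 3).

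Over the list of fatty acid and triglyceride synthesis genes, 7 of 23 lay above and 16 below control, with a median of −0.12 against −0.01 over all genes, and 0 passed the test. An unadjusted p under 0.05 was reached by 3, all lower, where 0.577% of all genes were lower at that level. The list's score, taken as the median log2 difference of its genes from the control mean, was −0.11, 0.18, −0.39 and 0.13 in controls and 0.16, −0.39, −0.20 and −0.08 in F2. The groups overlapped throughout. Without control replicate 2 and F2 replicate 2 the median was −0.01, with 11 of 23 above, while Fasn, Acly, Thrsp and Elovl6 kept differences of −0.96, −0.60, −0.67 and −0.61. Tkfc, which phosphorylates glyceraldehyde from fructose and is in the glycolysis and fructose list, stood at 10.32, 10.17, 10.07 and 10.38 in controls and at 10.16, 9.83, 9.66 and 9.85 in F2 (−0.36, SE 0.14), and here too F2 replicate 1 lay among the controls.

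Cholesterol synthesis genes lay below control in 17 of 17 cases, with a median of −0.39, and none passed the test. The scores were −0.36, 1.00, −0.52 and −0.01 in control replicates 1 to 4 and −0.05, −0.40, −0.52 and −0.48 in F2 replicates 1 to 4. Control replicate 2 stood above all other arrays, and the other 3 controls, at −0.52 to −0.01, covered nearly the whole F2 range. Only F2 replicate 3 lay below every control, and it and control replicate 3 both rounded to −0.52. Without that array 8 of 17 genes lay above control and the median was −0.08, and within the lower array set it was 0.01.

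Fdps, which makes farnesyl diphosphate, stood at 7.84, 9.87, 7.57 and 8.76 in controls and at 8.54, 7.65, 7.57 and 7.44 in F2 (difference −0.71, SE 0.43, and −0.26 without control replicate 2). Sqle, squalene epoxidase, stood at 4.51, 8.0, 4.46 and 5.35 in controls and at 5.66, 5.11, 4.42 and 4.63 in F2 (−0.62, SE 0.66, and 0.19 without control replicate 2). Nsdhl, a sterol dehydrogenase, was at 9.62 in control replicate 2 and between 6.69 and 7.93 on the other 7 arrays (−0.56, SE 0.50, and 0.03 without it). Sc5d, which acts late in the pathway, had the highest level of the list and a difference of −0.24 (SE 0.15, and −0.12 without control replicate 2). Insig1, the sterol-sensing brake on SREBP processing, stood at 9.24, 9.81, 9.58 and 9.53 in controls and at 9.39, 8.82, 9.40 and 8.71 in F2, where replicates 2 and 4 lay below every control (−0.46, SE 0.21). Erg28, a scaffold of sterol demethylation that is not in the list, did not overlap, at 7.85, 8.25, 7.85 and 7.87 in controls and 7.70, 7.81, 7.73 and 7.50 in F2 (−0.27, SE 0.10, and −0.17 without control replicate 2).

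The promoters of a cholesterol gene and of Fasn are shown as examples from the cholesterol and fatty acid lists. Any link between their motifs and the expression values was not tested. The classical sterol regulatory element was searched as TCACNCCAC and the CCAAT box, bound by the NF-Y factor, as CCAAT, on both strands of the 250 bases before the start of each gene in RefSeq (build GRCm38.p6). The first was found in 331 of 27025 genes (1.22%) and in 1 of the 13 cholesterol genes in the table, Hmgcs1. The second was found in 10133 genes (37.5%) and in 13 of the 13. The lines give the 160 bases that end 41 bases before the start, 5′ to 3′ in the gene's direction, for Hmgcs1 (chr13:119690151-119690310, plus strand) and Fasn (chr11:120824588-120824747, minus strand), with matches of either motif in capitals (ATTGG is CCAAT on the other strand).
Hmgcs1: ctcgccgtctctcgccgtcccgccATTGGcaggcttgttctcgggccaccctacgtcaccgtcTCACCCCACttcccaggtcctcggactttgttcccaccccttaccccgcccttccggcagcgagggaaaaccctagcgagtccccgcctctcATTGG
Fasn: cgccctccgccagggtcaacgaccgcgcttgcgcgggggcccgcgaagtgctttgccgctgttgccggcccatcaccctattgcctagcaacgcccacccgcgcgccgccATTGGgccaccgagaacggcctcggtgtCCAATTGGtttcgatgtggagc
The Fasn window held no match of TCACNCCAC and 3 of CCAAT, of which 2 overlap. These are matches of letters, not measured binding. Hmgcs1, HMG-CoA synthase of the cholesterol pathway, stood at 7.85, 10.89, 7.85 and 8.96 in controls and at 8.88, 7.72, 8.12 and 8.85 in F2. Control replicate 2 was the highest array, and the difference was −0.50 (SE 0.55) with that array and 0.17 without it.

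**Figure D3:**
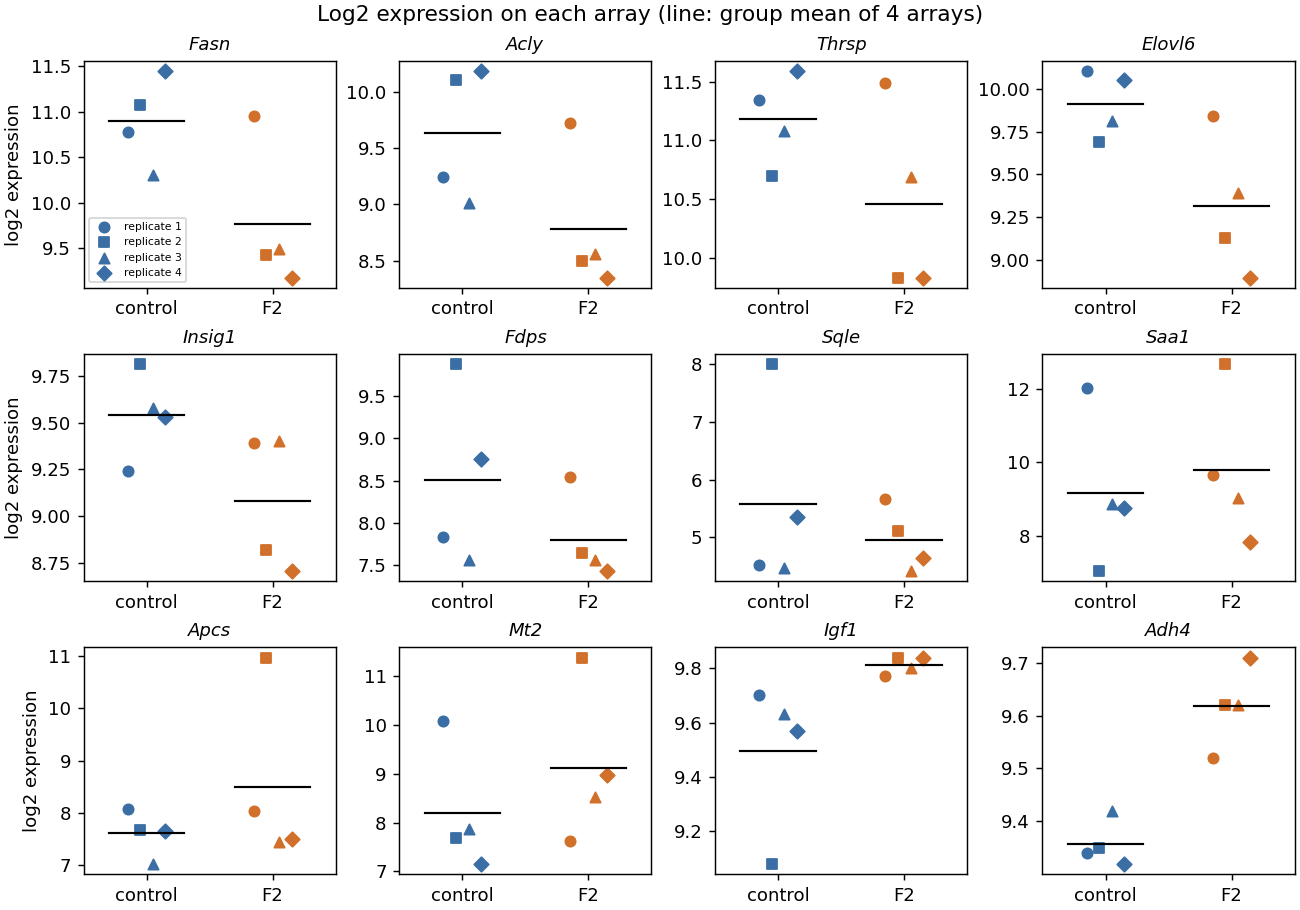
Log2 expression (vertical axes, each with its own range) of 12 genes on each control (blue) and F2 (orange) array, with a marker shape per replicate number and a line at the group mean (n = 4). F2 replicate 1 stays within the control range for Fasn, Acly, Thrsp and Elovl6, control replicate 2 stands at 8.0 for Sqle, and F2 replicate 2 at 10.97 for Apcs, while the groups do not overlap for Igf1 and Adh4.

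Acute phase genes, plasma proteins made by the liver in inflammation, lay above control in 25 of 27 cases, with a median of 0.19, and none passed the test. The scores were 0.38, −0.18, −0.03 and −0.08 in controls and −0.05, 0.78, 0.01 and −0.11 in F2. F2 replicate 2 was the highest array and control replicate 1 the next, and the other 6 arrays of both groups lay together. Without F2 replicate 2 the median was −0.05, with 8 of 27 above control. Apcs, serum amyloid P, showed it most clearly, at 8.07, 7.67, 7.03 and 7.66 in controls and at 8.04, 10.97, 7.44 and 7.50 in F2 (difference 0.88, SE 0.65, and 0.05 without F2 replicate 2). Saa1, serum amyloid A, was at 12.03, 7.06, 8.88 and 8.75 in controls and at 9.67, 12.66, 9.03 and 7.85 in F2 (0.62, SE 1.21), and Saa2 was also highest in F2 replicate 2 and control replicate 1 (0.58, SE 1.35). Both turned without F2 replicate 2, to −0.33 and −0.54. Cp, the copper carrier ceruloplasmin, at 0.19 (SE 0.11), kept 0.11 without that array.

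The metallothioneins, metal-binding proteins induced by stress hormones and inflammation, had the same arrays on top. Mt2 stood at 10.08, 7.69, 7.86 and 7.16 in controls and at 7.63, 11.38, 8.52 and 8.97 in F2 (0.92, SE 0.81), and Mt1 at 10.70, 9.53, 9.65 and 8.65 in controls and 9.11, 11.79, 9.99 and 10.08 in F2 (0.61, SE 0.57). Without F2 replicate 2 their differences were 0.17 and 0.10. Markers of immune cells were also highest in F2 replicate 2 among the F2 arrays. This was not particular to them. Stellate cell (0.13), bile duct (0.12), muscle and kidney (0.08) and pancreas and gut (0.03) scores were highest there too. Hepatocyte, red blood cell and adipocyte scores were not, and the sinusoidal endothelial score tied with F2 replicate 3 at 0.08. Kupffer cell scores were 0.21, −0.18, 0.05 and −0.06 in controls and −0.20, 0.41, −0.08 and −0.14 in F2, with 9 of 13 markers above control and 0 of 13 without F2 replicate 2. Lymphocyte scores were −0.05, −0.16, 0.17 and 0.02 in controls, 0.32 in F2 replicate 2 and −0.15 to −0.08 in the other F2 arrays, at marker levels of 4.79 to 5.65, close to the 4.55 filter. Neutrophil scores were 0.04, −0.26, 0.03 and −0.02 in controls, 0.13 in F2 replicate 2 and −0.13 to −0.11 in the other F2 arrays. The median level of neutrophil markers, 5.16, was also close to the filter. Their part in the acute phase result was not tested.

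Complement and coagulation genes lay above control in 26 of 32 cases (median 0.06, and 0.00 without control replicate 2) and in 7 of 32 without control replicate 2 and F2 replicate 2. C8a, a pore-forming complement subunit, had its lowest value in control replicate 2 (9.97, other controls 10.77 to 11.08) and its highest in F2 replicate 2 (11.34), for a difference of 0.34 (SE 0.20, and 0.10 without control replicate 2). F9, coagulation factor IX, was steadier, at 10.41, 10.23, 10.18 and 10.25 in controls and 10.50, 10.47, 10.42 and 10.39 in F2 (0.18, SE 0.069). Only F2 replicate 4 lay within the control range. Il1r1, the interleukin-1 receptor through which acute phase genes are induced, stood at 9.06, 7.87, 8.13 and 8.21 in controls and at 8.71, 9.21, 9.18 and 8.58 in F2 (0.60, SE 0.22). It lay above control replicates 2, 3 and 4 in every F2 array and overlapped through control replicate 1, the control with the highest acute phase score.

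Genes of the fasting program followed single arrays in both groups. The list of PPAR-alpha-responsive peroxisomal and omega oxidation genes had 10 of 20 members on either side of control and a median of −0.01, but its scores ran from −0.45 to 1.07 in controls (−0.45, 1.07, −0.10 and −0.36) and from −0.64 to 0.60 in F2 (0.10, −0.64, −0.01 and 0.60). Without control replicate 2 and F2 replicate 2 the median was 0.56, with 19 of 20 above. Fatty acid oxidation and ketogenesis genes (7 of 18 above, median −0.04) and lipid droplet and lipolysis genes (12 of 19 above, median 0.09, and 0.00 without control replicate 3) were at 0.22, with 17 of 18 above, and at 0.31, with 16 of 19 above, when those arrays were left out. The remaining 3 controls had oxidation scores of −0.13 to −0.10 and the remaining 3 F2 arrays of −0.01 to 0.24, without overlap, but this set of arrays was chosen with these values known. Cpt1a, which admits fatty acids to mitochondria, stood at 11.10, 11.49, 11.02 and 11.04 in controls and at 11.40, 11.40, 11.32 and 11.53 in F2 (0.25, SE 0.12). All F2 arrays lay above 3 of the 4 controls, and control replicate 2 lay among them. Pdk4, which blocks glucose oxidation in fasting, was at 7.13 in control replicate 2 and between 5.48 and 5.86 elsewhere (−0.37, SE 0.26, and −0.02 without it).

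Apoa4, an apolipoprotein of triglyceride-rich particles, differed by 0.57 (SE 0.21). It stood at 10.60, 9.87, 9.88 and 9.94 in controls and at 10.75, 10.95, 10.54 and 10.35 in F2, all above controls 2 to 4 and overlapping through control replicate 1. The difference was 0.40 without control replicate 2 and F2 replicate 2, and 0.64 and 0.50 within the higher and lower set. Pltp, the phospholipid transfer protein, was at 11.15 in control replicate 2 and 8.95 to 9.51 elsewhere (−0.37, SE 0.36, and 0.11 without it). Lipoprotein genes as a list lay above control in 10 of 16 cases, with a median of 0.02.

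Energy and carbohydrate genes differed little. Oxidative phosphorylation genes, which encode the respiratory chain, lay below control in 36 of 38 cases, but by a median of only −0.06, with scores of 0.06, 0.02, −0.05 and −0.01 in controls and −0.02, −0.18, 0.04 and −0.06 in F2. Without F2 replicate 2, 10 of 38 lay above and the median was −0.01. Atp5a1, an ATP synthase subunit, did not overlap, at 10.74, 10.74, 10.70 and 10.74 in controls and 10.67, 10.55, 10.67 and 10.62 in F2 (−0.10, SE 0.051). Glycolysis, fructose and glycogen genes lay below control in 13 of 16 cases (median −0.11, and −0.03 without F2 replicate 2, whose score was −0.30). Ldha, the lactate dehydrogenase subunit, ran the other way, at 9.06, 9.18, 8.93 and 8.86 in controls and 9.16, 9.46, 9.23 and 9.23 in F2 (0.26, SE 0.089). Gluconeogenesis genes lay below control in 11 of 16 cases (median −0.04), while Pck1, the enzyme that commits oxaloacetate to glucose, stood at 11.76, 11.48, 11.71 and 11.29 in controls and 11.93, 11.75, 12.00 and 11.69 in F2 (0.28, SE 0.12). The lowest F2 arrays of both genes lay within the control range. Mdh2, mitochondrial malate dehydrogenase, was at −0.15 (SE 0.092).

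Genes of detoxification were led by F2 replicate 2 and control replicate 2. NRF2 targets and glutathione genes, the antioxidant program, lay below control in 21 of 21 cases with a median of −0.24, and 0 passed the test. The scores were −0.21, 0.45, −0.11 and −0.01 in controls and −0.26, −0.53, −0.23 and −0.07 in F2, so F2 replicates 1, 2 and 3 lay below every control and F2 replicate 4 lay within the control range. The median was −0.11 without control replicate 2, −0.17 without F2 replicate 2 and −0.01 without both. Gstm2, a glutathione transferase, did not overlap, at 8.51, 8.88, 8.64 and 8.75 in controls and 8.43, 8.34, 8.46 and 8.46 in F2 (−0.27, SE 0.084), and stood at −0.27 in F3 as well, against the same controls. Close copies among the glutathione transferases can share probes. Cytochrome P450 and conjugation genes lay below control in 16 of 23 cases (median −0.09) and above in 12 of 23 without F2 replicate 2, whose score was −0.45 against −0.07 to 0.07 on the other 7 arrays. Cyp3a13 and Cyp2c55, both drug-metabolising enzymes, were at 0.28 (SE 0.20, and 0.10 without F2 replicate 2) and −0.28 (SE 0.17).

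Bile acid synthesis and transport genes lay below control in 14 of 20 cases (median −0.05, and 0.00 without F2 replicate 2), with a score of −0.30 in F2 replicate 2 and −0.02 to 0.04 elsewhere. Cyp8b1, the enzyme that directs synthesis to cholic acid, stood at 10.67, 10.90, 10.38 and 10.28 in controls and at 10.23, 9.55, 10.22 and 10.29 in F2 (−0.48, SE 0.17, and −0.31 without F2 replicate 2). F2 replicate 4 lay 0.01 above the lowest control, and the other F2 arrays lay below all controls. The F3 value against the same controls was −0.71. Cyp7b1, a male-biased oxysterol hydroxylase, was at 9.08 in control replicate 2 and 10.43 to 10.84 elsewhere (0.35, SE 0.31, and −0.05 without it).

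Sex-biased genes, set in mice by the pattern of growth hormone release, went with control replicate 2 and F2 replicate 2. Male-biased genes lay above control in 14 of 21 cases (median 0.06), with scores of 0.20, −0.48, 0.06 and 0.20 in controls and 0.08, −0.04, 0.18 and 0.18 in F2. Female-biased genes lay below in 8 of 13 (median −0.19), with scores of −0.16, 0.30, −0.04 and −0.15 in controls and −0.06, −0.80, −0.13 and 0.11 in F2. Without control replicate 2 both medians turned, to −0.04 and 0.17. Moxd1, a male-biased monooxygenase, was at 4.62 in control replicate 2 and 7.94 to 10.15 elsewhere (0.61, SE 1.16, and −0.61 without it). Cyp2b9, a female-biased P450, was at 8.50 in control replicate 2 and 4.07 to 4.27 on the other 7 arrays (−1.10, SE 0.76, and −0.02 without it). Those 7 arrays lay under the 4.55 filter, and the gene passed it only through control replicate 2. Serpina12, encoding the adipokine vaspin, was at 5.03 in control replicate 2, 6.75 to 7.22 in the other controls and 6.95 to 7.40 in F2 (0.69, SE 0.37, and 0.20 without it). Cyp2a4, a female-biased steroid hydroxylase, instead followed F2 replicate 2, at 11.08, 11.40, 11.21 and 11.03 in controls and 10.77, 9.57 and 10.94 in F2 replicates 1, 2 and 4. F2 replicate 3 lay between 10.94 and the lowest control, so the groups did not overlap (difference −0.61, SE 0.29, and −0.28 without F2 replicate 2). The female-biased list had 1 other member without overlap, Cyp2c40, and it was higher in F2 (0.16). Susd4, a male-biased complement regulator, had 3 controls at 7.92 to 7.93, control replicate 2 at 7.10 and F2 arrays at 7.28 to 7.54 (−0.31, SE 0.18, and −0.47 without control replicate 2 and F2 replicate 2).

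Igf1 and Adh4 were among the 132 genes without overlap, a group of 0.705% of those tested, and their F2 arrays lay close together. Igf1, the growth factor that the liver secretes under growth hormone, stood at 9.70, 9.08, 9.63 and 9.57 in controls and at 9.77, 9.84, 9.80 and 9.84 in F2. The control SD was 0.28 and the F2 SD 0.034. The difference was 0.32 (SE 0.12, 95% interval 0.05 to 0.58), 0.18 without control replicate 2, and 0.26 in F3 against the same controls. Adh4, an alcohol and retinol dehydrogenase, stood at 9.34, 9.35, 9.42 and 9.32 in controls and at 9.52, 9.62, 9.62 and 9.71 in F2, with both groups narrow (0.26, SE 0.088, 95% interval 0.07 to 0.45). It was between 0.24 and 0.28 within either set of arrays and 0.25 without control replicate 2 and F2 replicate 2, and the F3 value was 0.34. Cyp2c67, a P450 with near-identical neighbours that can share probes, did not overlap either (0.21, SE 0.079, and 0.47 in F3). Nor did its relative Cyp2c40, of the female-biased list (0.16, SE 0.082), although its highest control and lowest F2 array both rounded to 10.39.

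Higher without overlap were also Arsg, a lysosomal sulfatase, at 6.12, 6.37, 6.18 and 6.30 in controls and 6.49, 6.92, 6.40 and 6.42 in F2 (0.31, SE 0.11, and 0.19 without F2 replicate 2), Slc12a2, the sodium, potassium and chloride cotransporter (0.24, SE 0.096), and Cav2, caveolin 2 (0.23, SE 0.076). Atrnl1, an attractin-like membrane protein, lay at 7.87 to 8.06 in controls and 8.08 to 8.22 in F2 (0.18, SE 0.060), and Gtf2e2, a general transcription factor subunit, was at 0.16 (SE 0.068, and 0.10 without control replicate 3). Ppp4r4 (0.21, SE 0.13), a phosphatase regulatory subunit, and the immunoglobulin segment Igkv4-63 (0.29, SE 0.11) were at 0.14 without F2 replicate 2 and at 0.15 without control replicate 3.

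Lower without overlap were Map3k13, a stress kinase, at 7.53 to 7.67 in controls and 7.40, 6.75, 7.39 and 7.41 in F2 (−0.38, SE 0.21, and −0.21 without F2 replicate 2), and Ropn1l, a sperm flagellum protein gene, at 5.80 to 5.90 in controls and 5.56 to 5.73 in F2 (−0.23, SE 0.067). Tuba1a, an alpha tubulin whose copies can share probes, was at −0.24 (SE 0.16), Ces2g, a carboxylesterase, at −0.22 (SE 0.12), Clpsl2, a colipase-like gene, at −0.20 (SE 0.081, and −0.13 without control replicate 3), Pomt1, a protein mannosyltransferase, at −0.19 (SE 0.076), and Cenpx, a centromere protein, at −0.18 (SE 0.067). Cenpx was at 0.00 in F3 and Pomt1 at −0.17, against the same controls. None of these genes passed the test (adjusted p = 0.9999 at the least, limma).

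Transcription factors and hormone-binding proteins at the top by size did not separate the groups. Onecut1, a liver developmental factor, stood at 9.44, 7.67, 7.04 and 9.38 in controls and 7.83, 9.12, 8.83 and 10.28 in F2 (0.63, SE 0.70, and 0.19 without control replicate 3). Serpina7, the thyroxine-binding globulin, stood at 5.86, 9.13, 5.93 and 6.74 in controls and 7.80, 7.58, 7.05 and 8.01 in F2 (0.70, SE 0.66), with 0.34 without control replicate 1 and 1.44 without control replicate 2 and F2 replicate 2. Here control replicate 2 was the highest array and the other 3 controls were below every F2 array.

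**Figure D4:**
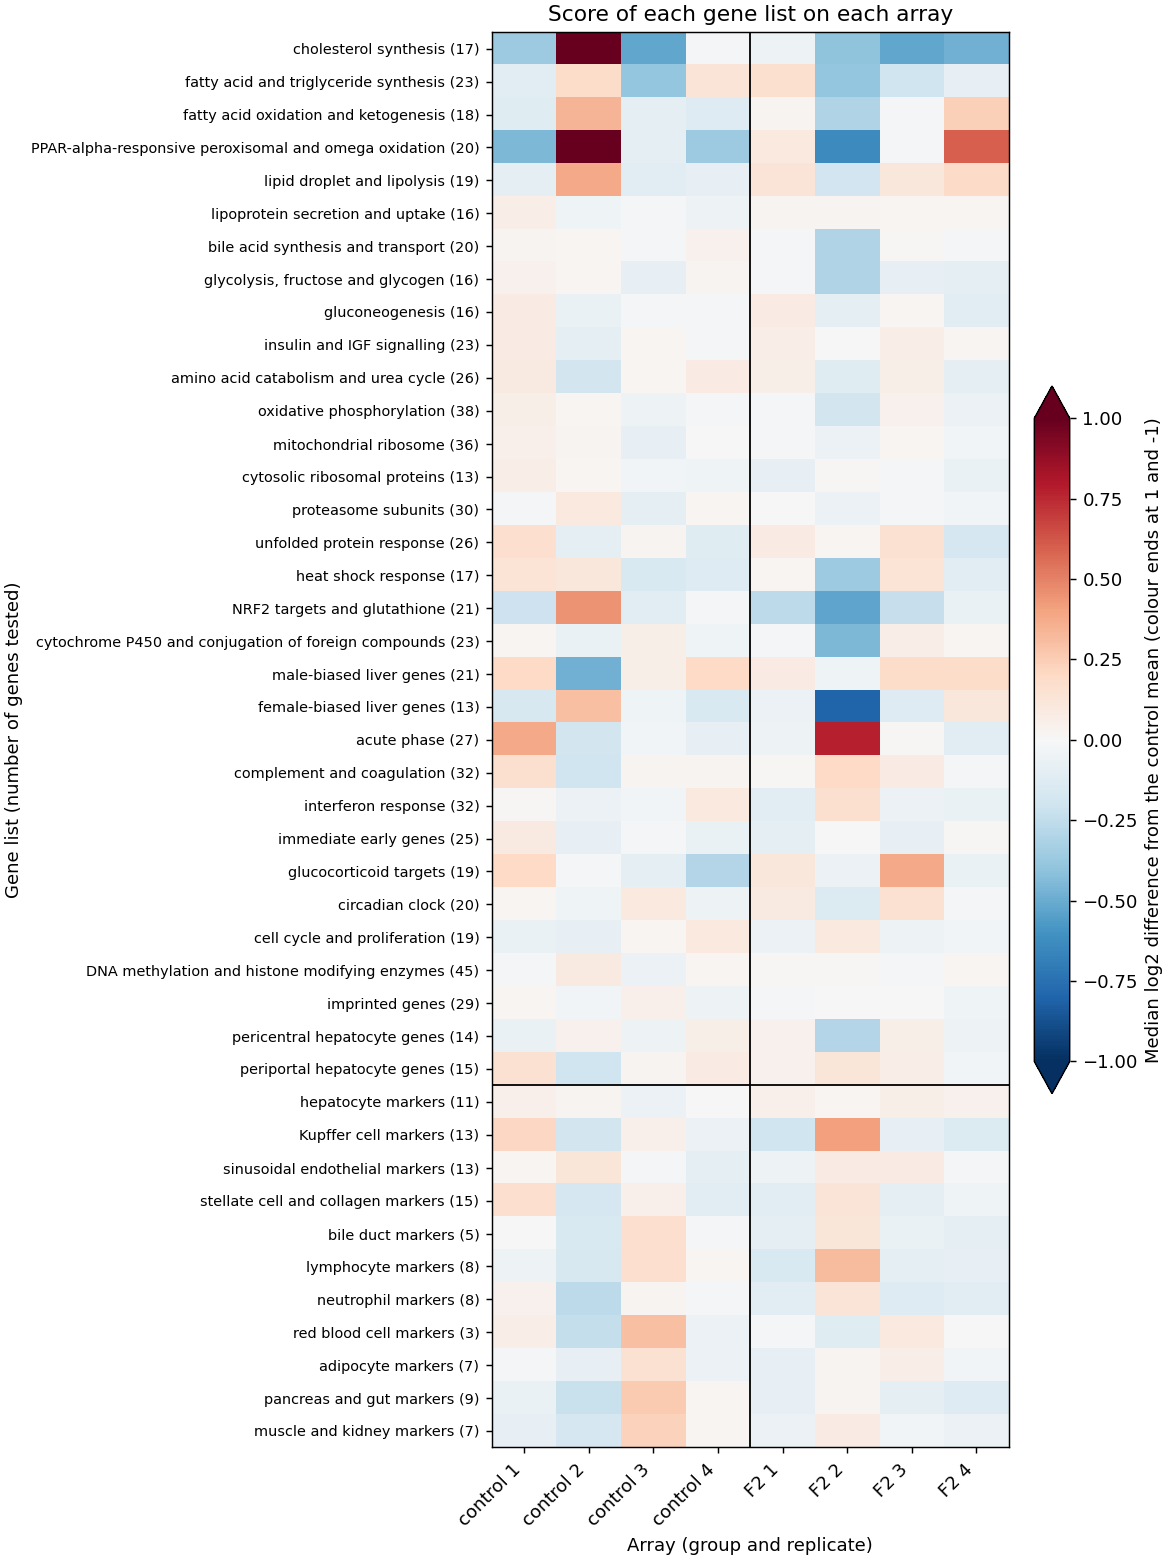
Score of each of the 32 pathway lists (above the line) and 11 marker lists (below it) on each of the 8 arrays, as the median over the list's genes of the log2 difference from the control mean, with red higher and blue lower and genes tested in brackets. The columns of control replicate 2 and F2 replicate 2 are the most coloured, with cholesterol synthesis at 1.00 in the first and acute phase at 0.78 in the second.

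Signalling and stress lists had medians from −0.08 to 0.08, against −0.01 over all genes. Insulin and IGF signalling genes lay above control in 15 of 23 cases (median 0.02), with Igfbp2, an IGF carrier, at −0.24 (SE 0.15, and −0.15 without control replicate 3). Glucocorticoid targets lay above in 12 of 19 (median 0.08, and 0.04 to 0.35 when each array was left out), with scores from −0.29 to 0.20 in controls and −0.07 to 0.38 in F2. A difference of 0.3 or more was seen for 4 of the 19, against 1.38% of all genes. Mt2 had the largest difference of this list (0.92, and 0.17 without F2 replicate 2), and Pck1 (0.28) is also a member. Heat shock genes lay below in 16 of 17 cases (median −0.08), yet above in 12 of 17 without F2 replicate 2, whose score was −0.36. Hspd1, the mitochondrial chaperonin, was at −0.10 (SE 0.075, and −0.04 without control replicate 2). Unfolded protein response genes lay above in 19 of 26 (median 0.04), with Atf4, its transcription factor, at −0.15 (SE 0.091). Immediate early genes lay above in 9 of 25 (median −0.04), with Klf2 at 0.17 (SE 0.099) and Fosb at −0.18 (SE 0.10, and −0.11 without control replicate 1), and clock genes in 11 of 20 (median 0.01), with the repressor Bhlhe41 at 0.18 (SE 0.16, and 0.03 without control replicate 1).

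Housekeeping, chromatin and zonation lists had medians within 0.06 of control. Ribosomal protein genes lay below in 12 of 13 cases (median −0.06), proteasome genes in 23 of 30 (−0.03), mitochondrial ribosome genes in 21 of 36 (−0.01) and amino acid catabolism and urea cycle genes in 19 of 26 (−0.03). DNA methylation and histone modifying enzymes lay above in 24 of 45 cases (median 0.02), with no member differing by more than 0.15. Ezh2, the histone H3 methyltransferase, was at 0.09 (SE 0.055) and Trim28, the corepressor that keeps retroelements and imprints silent, at −0.07 (SE 0.058, and −0.05 without control replicate 2). Imprinted genes, expressed from 1 parental copy, lay above in 14 of 29 (median −0.01), with scores between −0.05 and 0.05 on every array, Peg10 at 0.23 (SE 0.14, and 0.11 without F2 replicate 2) and Ddc at −0.29 (SE 0.18). Interferon genes lay below in 20 of 32 (median −0.02) and cell cycle genes above in 11 of 19 (0.01). Mx2, an interferon-induced gene of the GTPase family that is classed here as a pseudogene, was at 0.14 (SE 0.089, and 0.09 without control replicate 2). The chemokine Cxcl10, near the filter, was at −0.13 (SE 0.11, and −0.04 without control replicate 1). Pericentral hepatocyte genes lay below in 13 of 14 (median −0.05, and below in 7 of 14 without F2 replicate 2), with Lgr5, the Wnt receptor of that zone, at −0.19 (SE 0.12, and −0.08 without control replicate 2), and periportal genes in 8 of 15 (0.00). Of the 15 periportal genes, 3 reached an unadjusted p under 0.05 (limma), all higher, with Apoa4 (0.57) the lowest in p. Of all genes 0.342% were higher at that level.

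In all, 11 of the 32 pathway lists had a median above control and 21 below, and 13 kept their sign whichever of the 8 arrays was left out. The lists that changed sign numbered 7 without control replicate 2, 7 without F2 replicate 2 and 12 without both. For 15 lists the higher and the lower set of arrays had medians of opposite sign. Centring every array on its median turned 4 lists and quantile normalization 1.

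**Figure D5:**
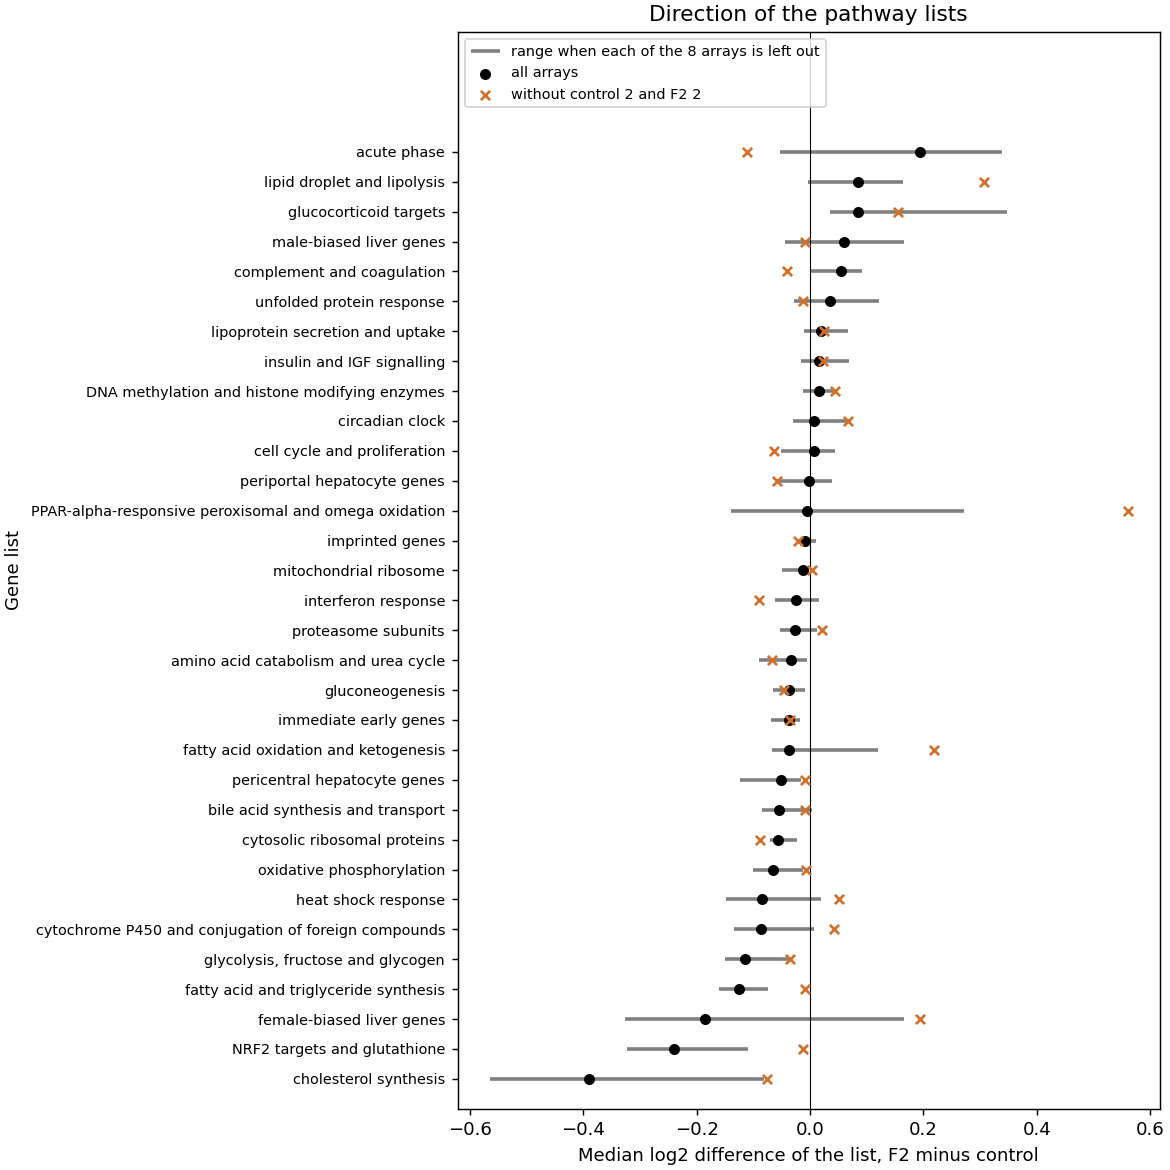
Median log2 difference, F2 minus control (horizontal axis), of the 32 pathway lists (vertical axis), with all arrays (points), its range when each of the 8 arrays is left out (bars) and its value without control replicate 2 and F2 replicate 2 (crosses). Cholesterol synthesis lies lowest at −0.39 and its range reaches −0.08, and acute phase lies highest at 0.19 and its range reaches −0.05.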

How the data were processed

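The authors deposited a log2 value for every probe set and array. Per the submitters' processing notes, the software was Affymetrix Expression Console. How it corrected background and normalized is not given in the sources used here. Total RNA was extracted with Trizol, per the labels' protocols. Of 72688 probe sets, 32750 were listed in the platform annotation, 30604 with 1 symbol and 2146 with several. No gene was named from the latter. Symbols were updated through RefSeq (22818 identifiers matched, 827 changed), giving 30142 genes. A gene with several probe sets (355 genes) was represented by its brightest. Genes with a mean above 4.55, the median of all probe sets, were tested (18725).

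All 12 arrays entered 1 limma fit (version 3.58.1, R 4.3.3, moderated by eBayes, 9 residual degrees of freedom), with the 3 groups taken from the labels and no covariate. P-values were adjusted by Benjamini-Hochberg over all genes tested, and intervals are 95%. The procedure was tested on simulated data. Arrays were split into 2 sets at the mean level of the Snora, Snord and Scarna genes. Members and lists were chosen with earlier results of these data known. Lists are described by counts and medians.

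Genes were named by rule: up to 10 per direction with the largest difference, 10 per direction with the largest difference among genes whose groups did not overlap, and the brightest and lowest-p members of each list. Predicted, RIKEN, small RNA, pseudogene and receptor names were passed over in the rules that use the size of the difference (7, 8, 11 and 14 genes). Those given were chosen after their values were seen, except Mx2, which was named as a list member. Alternatives were other scalings, filters and fits, the replicate number or the array set as a block, fits within 1 set, and leaving out arrays.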

Additional observations from a re-analysis of the deposited data

Results flagged for a closer look

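For 27 of 244 groups of 4 arrays examined, the most extreme array stood further from its neighbour than Dixon's 95% critical value allows, relative to the range of the group. Chance gives about 1 in 20 groups only where the items are chosen without regard to their values. Many of these genes were named for their differences on the same arrays, so that rate is no background here. Genes of a list are also not independent.

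F2 replicate 2 stood apart most often. It was the highest F2 array for Apcs (10.97), Cp (10.07) and Ppp4r4 (5.60), and the lowest for Cyp2a4 (9.57), Cyp8b1 (9.55), Map3k13 (6.75) and Pomt1 (6.55). Its list scores were the highest for acute phase genes (0.78) and for lymphocyte (0.32), neutrophil (0.13) and bile duct (0.12) markers, and the lowest for bile acid (−0.30) and cytochrome P450 genes (−0.45). All of these scores are medians of log2 differences from the control mean.

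Control replicate 2 was the highest control for Cyp2b9 (8.50), Erg28 (8.25), Pdk4 (7.13) and Pomt1 (7.07), the lowest for Susd4 (7.10), and the highest in the scores of fatty acid oxidation (0.34) and lipid droplet genes (0.38). Control replicate 3 was the lowest for Igkv4-63 (4.29) and Atp5a1 (10.70, where the other 3 stood at 10.74) and the highest for Clpsl2 (6.22). Control replicate 1 was the highest for Apoa4 (10.60).

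F2 replicate 1 stood above the other F2 arrays for the lipogenic gene Acly (9.72) and the sterol gene Nsdhl (7.82), and F2 replicate 4 for Lgr5 (6.12).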

How the results depend on the processing

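Limma called 0 genes under every alternative. The number at an unadjusted p under 0.05 (limma) was 172 of 18725 genes as reported. It was 484 of 30142 with no filter and 87 of 10852 with the stricter filter, so these counts compare only beside their totals. Of the 18725, it was 112 with arrays centred on their medians, 304 with the array set as a block and 422 within the higher set. It was 141 to 573 when each array was left out and 1358 without both control replicate 2 and F2 replicate 2. With the replicate block it was 140. Deviations of same-numbered control and F2 arrays correlated at −0.38, −0.51, 0.32 and 0.31 for replicates 1 to 4. For replicates 1 and 2 the control and F2 arrays were in different array sets, and for replicates 3 and 4 in the same set. The correlations therefore cannot tell whether the numbers pair the arrays. The 132 of 18725 genes without overlap were 335 of 30142 with no filter and 80 of 10852 with the stricter one. With fewer arrays to separate, they were, of the 18725, 4653 within the higher set and 3245 within the lower set. They were 256 to 646 without single arrays and 3100 without both. The median size of the difference, 0.044, was 0.045 to 0.067 without single arrays and 0.0895 without both.

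Of 79 single genes followed, 0 passed in any alternative and 9 turned without some 1 array. Without single arrays Hmgcs1 ran from −0.85 to 0.17, Sqle from −0.99 to 0.19, Nsdhl from −0.95 to 0.03, Pltp from −0.62 to 0.11, Saa1 from −0.33 to 1.57, Saa2 from −0.54 to 1.63, Moxd1 from −0.61 to 1.23, Cyp7b1 from −0.05 to 0.54 and Scd1 from −0.0051 to 0.11. Without both arrays Hmgcs1 was at 0.39, Sqle at 0.13, Nsdhl at 0.075, Pltp at 0.05, Saa1 at −1.04, Saa2 at −1.28, Moxd1 at −0.86, Cyp7b1 at −0.063, Pdk4 at 0.054 (single arrays, down to −0.51), C8a at −0.0086 (up to 0.47) and Hspd1 at 0.0068 (down to −0.14). Within the lower set Hmgcs1 was at 0.066, Sqle at 0.29, Nsdhl at 0.18, Pltp at 0.11, Moxd1 at −0.25 and Cyp7b1 at −0.0029, and within the higher set Serpina7 was at −0.031. The set block left every difference the same because each set holds 2 arrays per group. Signal near background limits the dimmest genes, and 4 arrays a group limit all.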
